A study of Mus musculus with 6 samples.

Results

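Hepatocytes make most of the proteins of blood plasma and hold the enzymes of the urea cycle, gluconeogenesis and amino acid breakdown. This report follows 36 gene symbols of these kinds, 15 for secreted plasma proteins and 21 for metabolic enzymes, in RNA from the epithelium of the bile ducts inside the liver. The members were chosen by symbol from the deposited table of normalized read counts, and 35 of the 36 had a row among its 25302 rows. The symbol Vtnb had no row, so 14 secreted proteins and 21 enzymes were described.

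The study sequenced total RNA, after depletion of ribosomal RNA, from intrahepatic biliary epithelial cells of mouse liver in 3 Control and 3 Sox9cKO samples. Control samples had the genotype Sox9fl/fl, with both alleles of the transcription factor gene Sox9 flanked by loxP sites. Sox9cKO samples had the genotype Sox9fl/fl:AlbCre+/-, with the same floxed alleles and a transgene that makes Cre recombinase under the promoter of the albumin gene. That promoter acts in hepatocytes and in the fetal precursors that hepatocytes share with biliary cells. The transgene was carried by the Sox9cKO samples only, so loss of Sox9 and presence of the transgene cannot be told apart here. The labels do not say whether the samples came from separate animals, so p-values measure only the spread between these samples.

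In the liver, hepatocytes take up amino acids, turn their nitrogen into urea through the urea cycle and use their carbon to make glucose. They release albumin, transport proteins, coagulation factors and protease inhibitors into the blood through the secretory pathway. Biliary cells and hepatocytes arise from a common precursor, and transcripts of hepatocyte genes can be found at low level in biliary preparations.

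All levels are normalized read counts, that is, reads of a gene divided by the size factor of its sample. The 6 libraries held between 11883496 and 16191990 reads on genes. The size factors lay between 0.868 and 1.19. Sox9 itself was read at 6211, 6043 and 6293 in Control replicates 1 to 3 and at 3363, 3165 and 3340 in the Sox9cKO samples in the same order. It was lower in every Sox9cKO sample, and its log2 fold change was -0.91 (limma, Benjamini-Hochberg adjusted p = 0.00501). The 12 biliary markers (Krt7, Krt19, Epcam, Spp1 and others) summed to between 8850 and 12211 RPM (reads-per-million of the library) in Control and between 7079 and 9072 in Sox9cKO. Markers of the labelled cell type were thus abundant in every library. The groups overlapped, but the sum was lower in Sox9cKO for each replicate number. Of the 12 markers, 9 had negative log2 fold changes, and 1 was called higher and 1 lower (1 and 4 with the replicate block, a fit described below). The marker called lower without the block was Sox9 itself, which is also part of the sum. The 10 endothelial markers differed widely among samples of one group, from 122 to 2703 RPM in Control and from 411 to 2633 in Sox9cKO. All 10 had positive log2 fold changes, between 0.63 and 1.52 with a median of 1.07, and none was called without the block (1 with it). Their part in the changes below was not tested.

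RefSeq promoter sequences were found for 26 of the 35 genes. The 5 shown belong to genes the results turn on: Alb, whose promoter drives the Cre transgene, 3 secreted proteins that rose and 1 enzyme that rose. Each is the 250 bases before the annotated start, written 5′ to 3′ on the strand of the gene, on build GRCm38.p6. Capitals mark any match, on either strand, to 1 of 8 short motifs. The motif searched for HNF1 was its half-site GTTAAT, and that for HNF4 was the half-site AAAGTCC. The motif for FOXA factors was TGTTTAC, for C/EBP factors TTGCNNAA and for STAT factors TTCNNNGAA. The motif for SOX factors was ACAATG. The core promoter motifs were the TATA box, searched as TATAAA, and the CCAAT box. None of these motifs contains another. The regions are chr5:90460620-90460869 on the plus strand for Alb, chr14:30886226-30886475 on the plus strand for Itih4, chr2:10130684-10130933 on the minus strand for Itih2, chr19:38125322-38125571 on the minus strand for Rbp4 (the first of its listed starts) and chr8:109990186-109990435 on the plus strand for Tat.
Alb: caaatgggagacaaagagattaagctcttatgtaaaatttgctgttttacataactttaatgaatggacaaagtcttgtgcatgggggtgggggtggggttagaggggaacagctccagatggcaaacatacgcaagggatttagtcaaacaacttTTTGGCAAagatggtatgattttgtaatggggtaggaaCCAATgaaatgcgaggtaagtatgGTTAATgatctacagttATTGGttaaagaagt
Itih4: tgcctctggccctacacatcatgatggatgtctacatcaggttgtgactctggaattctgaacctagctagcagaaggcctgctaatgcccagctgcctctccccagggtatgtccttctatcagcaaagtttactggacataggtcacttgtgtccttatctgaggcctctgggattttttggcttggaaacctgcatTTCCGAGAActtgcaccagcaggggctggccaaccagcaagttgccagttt
Itih2: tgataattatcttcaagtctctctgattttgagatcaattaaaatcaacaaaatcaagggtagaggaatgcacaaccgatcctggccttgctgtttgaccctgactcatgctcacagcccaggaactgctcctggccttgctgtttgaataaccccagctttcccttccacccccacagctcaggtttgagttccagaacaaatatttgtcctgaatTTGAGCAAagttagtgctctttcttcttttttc
Rbp4: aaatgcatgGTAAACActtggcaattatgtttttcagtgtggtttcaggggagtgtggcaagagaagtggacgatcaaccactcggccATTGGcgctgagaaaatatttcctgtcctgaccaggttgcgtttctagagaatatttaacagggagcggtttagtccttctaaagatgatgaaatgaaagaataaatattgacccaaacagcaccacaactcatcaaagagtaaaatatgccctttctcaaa
Tat: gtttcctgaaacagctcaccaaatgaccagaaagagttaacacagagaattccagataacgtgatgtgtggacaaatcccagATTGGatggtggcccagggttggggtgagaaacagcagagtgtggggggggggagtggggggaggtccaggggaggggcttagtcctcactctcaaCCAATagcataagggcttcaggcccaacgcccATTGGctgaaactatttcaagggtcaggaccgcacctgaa

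The Alb promoter held an HNF1 half-site 32 bases before the start, a C/EBP match 94 bases before it, and CCAAT matches at 56 and 15 bases. The Itih4 promoter held a STAT match 51 bases before the start, Itih2 a C/EBP match at 33 bases, Rbp4 a FOXA match at 241 bases and a CCAAT match at 162, and Tat CCAAT matches at 168, 72 and 40 bases. A match describes the letters and is not a measured binding site. Of the 26 promoters, 4 held an HNF1 half-site (Alb, G6pc, Itih1 and Pck1), while 6.52% of 27025 mouse promoters of the same length did. C/EBP matches were found in 5 (Ahsg, Alb, Hal, Hgd and Itih2; 9.55% of all promoters) and CCAAT in 13 (34.5%). The HNF4 half-site (3.65%), FOXA (3.09%) and STAT (7.18%) motifs were each found in 1 promoter, of Hgd, Rbp4 and Itih4. The TATA box was found in 5 (12.97%) and the SOX motif, searched only as ACAATG, in none (10.99%). Other forms of a SOX site were not searched, so a promoter without this match may still hold one. Among the 7 promoters of genes that rose, 4 held CCAAT, and FOXA, C/EBP, STAT and TATA matches were each found in 1. None held an HNF1 half-site, an HNF4 half-site or the SOX motif as searched. With 7 promoters, these counts do not set the genes that rose apart from the other members.

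In Sox9cKO, 8 of the 32 genes that could be tested rose and none fell. A gene was tested when its mean over the 6 samples was at least 10, and called when limma's two-sided test, adjusted over all 17153 genes tested, gave a p under 0.05. Of all tested genes, 2.03% were called higher and 0.939% lower. Among the secreted proteins 5 of 14 rose (Plg, Itih4, Rbp4, F2 and Itih2), and among the enzymes 3 of 18 (Bhmt, Tat and Tdo2). The median log2 fold change was 1.32 over the tested secreted proteins, 0.48 over the tested enzymes and 0.036 over all tested genes. The tested members with the fewest reads, Hgd, Gls2, Hal and Arg1, were enzymes, followed by the secreted Fetub. A gene with few reads is harder to call. The difference between the secreted proteins and the enzymes, and the part of read depth in it, was described and not tested. In these bulk samples, more cells of a type and more RNA per cell cannot be told apart.

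The fit that treats the replicate number as a block, since same-numbered samples deviated together, called 12 genes higher and none lower, 8 secreted and 4 enzymes. It called 5.06% of all tested genes higher and 2.99% lower. The genes added by the block were Ahsg, Kng1, Itih1 and Fbp1. In 17 of the 32 tested genes (9 secreted and 8 enzymes), every Sox9cKO sample was above every Control sample, against 13.4% of all tested genes. The opposite order was found for 1 gene, Serpinc1, against 10.8% of all tested genes.

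**Figure D1:**
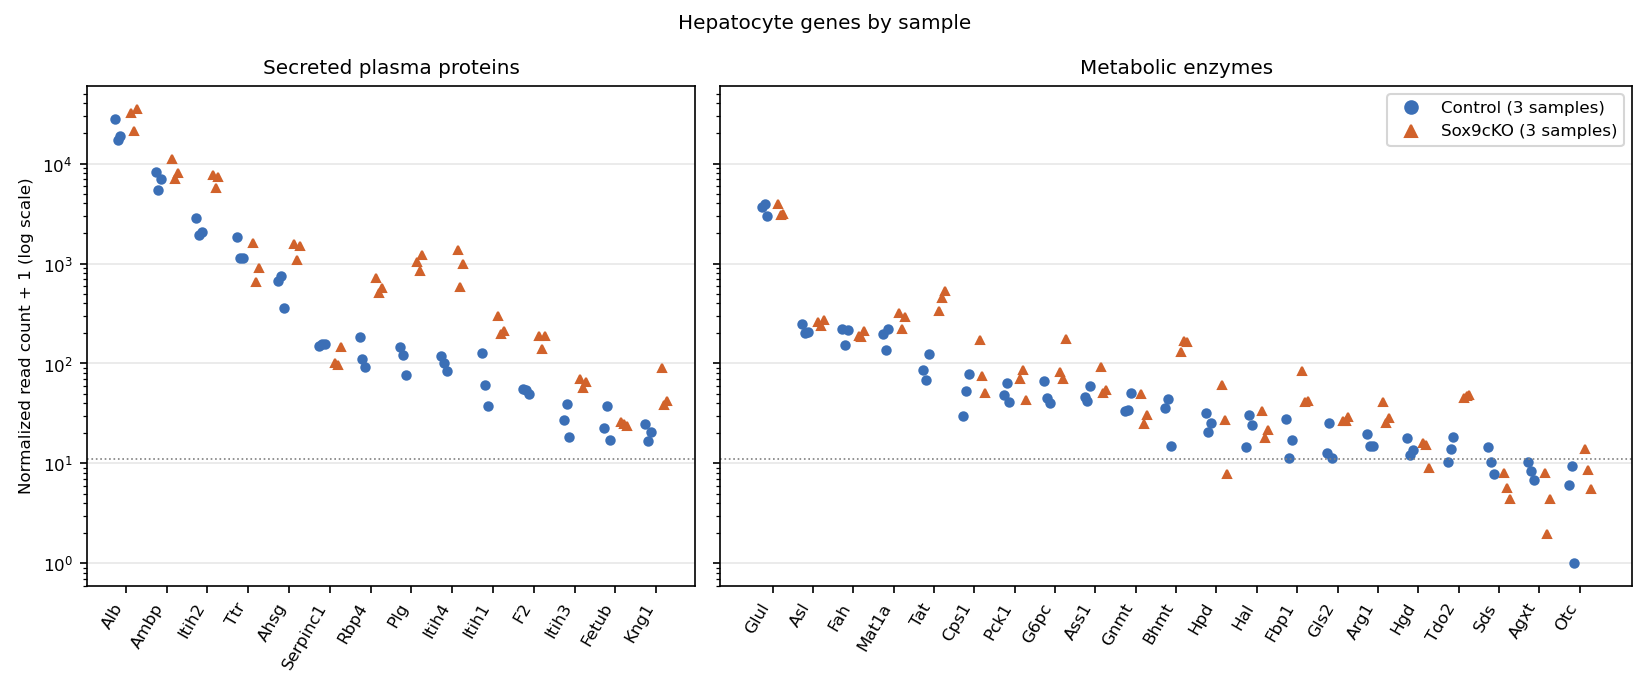
Normalized read count plus 1 on a log axis for the 14 secreted plasma proteins and the 21 enzymes, with 1 point per sample (circles Control, triangles Sox9cKO) and genes ordered by Control mean. The dotted line marks the minimum mean of 10 used for testing; Plg, Itih4, Rbp4, F2, Itih2, Tat, Bhmt and Tdo2 have all 3 Sox9cKO points above all 3 Control points.

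Among the carrier proteins, Alb is the main protein of plasma and was the most abundant of all members. Alb was read at 27683, 17384 and 18944 in the Control samples, replicates 1 to 3, and at 32147, 21399 and 35363 in the Sox9cKO samples. The groups overlapped, since Control replicate 1 was above Sox9cKO replicate 2. Its log2 fold change, 0.47 (standard error 0.248), was not called (limma, adjusted p = 0.380, and 0.115 with the block). Its 95% confidence interval ran from -0.11 to 1.05.

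Rbp4 carries retinol from the liver to other tissues. Rbp4 was read at 182, 109 and 91.0 in Control and at 721, 511 and 568 in Sox9cKO, so the lowest Sox9cKO sample was far above the highest Control sample. It rose 4.72-fold, from a mean of 127 ± 48.0 to 600.3 ± 109 (SD, n = 3 each), with a log2 fold change of 2.28 (standard error 0.275; limma, adjusted p = 0.00736). Ttr, which binds thyroxine and forms the plasma complex with Rbp4, did not share that change. Ttr was read at 1844, 1123 and 1135 in Control and at 1589, 657 and 907 in Sox9cKO, with overlapping groups (log2 fold change -0.44; limma, adjusted p = 0.570). Ambp, the precursor of alpha-1-microglobulin and of the bikunin light chain, stood at 8207, 5490 and 6936 in Control and at 11125, 6958 and 8006 in Sox9cKO. Its groups overlapped and its log2 fold change of 0.33 did not pass (limma, adjusted p = 0.488).

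Of the 4 coagulation and fibrinolysis genes, Plg and F2 rose, Kng1 was called with the block only, and Serpinc1 was not called. Plg encodes plasminogen, the precursor of the protease that dissolves fibrin. Plg was read at 146, 120 and 74.9 in Control and at 1025, 847 and 1224 in Sox9cKO. Every Sox9cKO sample was far above every Control sample, and the mean rose 9.08-fold (log2 fold change 3.21, standard error 0.267; limma, adjusted p = 0.00319). Exons of Plg share 420 of 3711 bases with Slc22a3 on the other strand, which was read at no more than 3.78 in any sample.

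F2 encodes prothrombin. F2 was read at 54.6, 53.8 and 48.4 in Control and at 187, 140 and 186 in Sox9cKO, and the Control samples were nearly equal. It rose 3.27-fold (log2 fold change 1.68, standard error 0.199; limma, adjusted p = 0.00710). Serpinc1 encodes antithrombin, the main inhibitor of thrombin. It was read at 149.6, 154 and 155.5 in Control and at 100.5, 96.4 and 145 in Sox9cKO. Every Sox9cKO sample was below every Control sample, by little in replicate 3, and the log2 fold change of -0.45 did not pass (limma, adjusted p = 0.313, and 0.187 with the block). Serpinc1 shares 2942 of 8546 exon bases with Zbtb37 on the other strand (log2 fold change 0.19, not called). Whether counting used the strand is not given in the sources used here, so reads of this pair cannot be assigned with certainty.

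The inter-alpha-inhibitor heavy chains, which are secreted, were 4 of the members. Of these, Itih2 and Itih4 rose, and in each of the 4 every Sox9cKO sample was above every Control sample. Itih4, an acute phase protein, was read at 118.5, 101 and 83.0 in Control and at 1377, 576 and 984 in Sox9cKO. The Sox9cKO samples differed among themselves by more than 2-fold, and the lowest was still above every Control sample. The mean rose 9.70-fold, with a log2 fold change of 3.19 (standard error 0.317; limma, adjusted p = 0.00445).

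Itih2 was the most abundant heavy chain, at 2847, 1944 and 2069 in Control and at 7657, 5736 and 7257 in Sox9cKO. The groups were far apart, and Itih2 rose 3.01-fold (log2 fold change 1.60, standard error 0.183; limma, adjusted p = 0.00649). Per kilobase of exon it went from the fifth place among the members in Control, at 690 normalized reads, to the third place in Sox9cKO, at 2076. Only Alb and Ambp were above it there.

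Itih1 was read at 125, 59.4 and 36.9 in Control and at 300.5, 195 and 209 in Sox9cKO. Control replicate 1 stood apart from the other Control samples, and the groups did not overlap. The log2 fold change of 1.81 was not called without the block (limma, adjusted p = 0.0810) and was called with it (0.0100). Itih3 lay between 17.3 and 38.1 in Control and between 55.8 and 69.6 in Sox9cKO, and its log2 fold change, 1.26, did not pass the threshold (limma, adjusted p = 0.104, and 0.0614 with the block). Itih4, Itih3 and Itih1 are neighbours on chromosome 14. Itih5, which lies next to Itih2 on chromosome 2 and is no member, stood at 0.15 on the log2 fold scale (limma, adjusted p = 0.686), with 2430 ± 446 in Control and 2683 ± 312 in Sox9cKO (SD, n = 3 each).

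The fetuins and kininogen are related secreted proteins encoded close together on chromosome 16. Ahsg, fetuin-A, which keeps calcium phosphate in solution, was read at 672, 753 and 355 in Control and at 1552, 1082 and 1505 in Sox9cKO. The groups did not overlap, and the log2 fold change of 1.27 was called with the block only (limma, adjusted p = 0.0770 without it and 0.0367 with it). Fetub, its direct neighbour, lay between 16.1 and 36.2 in Control and between 22.6 and 24.9 in Sox9cKO (log2 fold change 0.016; limma, adjusted p = 0.988). Kng1, the precursor of bradykinin, was read at 23.5, 15.8 and 19.6 in Control and at 89.5, 37.8 and 40.8 in Sox9cKO. It was above every Control sample in all 3 Sox9cKO samples, mostly so in replicate 1 (log2 fold change 1.37; limma, adjusted p = 0.127, and 0.0402 with the block). Reads of Kng1 may be shared with its near copy Kng2.

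**Figure D2:**
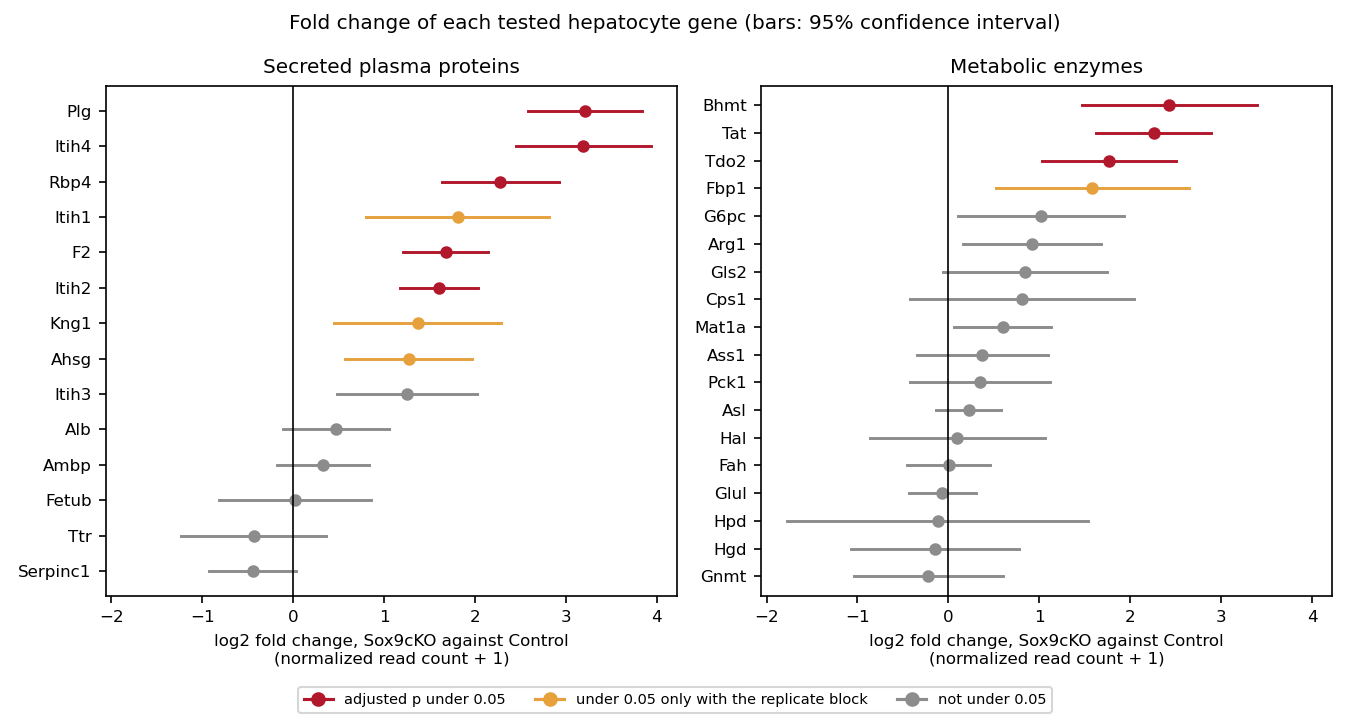
Log2 fold change of Sox9cKO against Control (points) with its 95% confidence interval (bars) for the 14 secreted proteins and the 18 enzymes tested with limma on log2(normalized read count + 1). Red marks an adjusted p under 0.05, orange an adjusted p under 0.05 only with the replicate block and grey neither; 5 secreted proteins and 3 enzymes are red, and all of them lie to the right of 0.

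Among the enzymes of aromatic amino acid breakdown, those that start the breakdown of tyrosine and tryptophan rose, and those further down the tyrosine pathway were not called. Tat encodes tyrosine aminotransferase, the first step of tyrosine breakdown. Tat was read at 85.7, 66.8 and 123 in Control and at 336, 449 and 526 in Sox9cKO, with no overlap. It rose 4.75-fold (log2 fold change 2.26, standard error 0.270; limma, adjusted p = 0.00726).

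Tdo2, tryptophan dioxygenase, was read at 9.25, 12.99 and 17.3 in Control and at 43.8, 46.3 and 47.5 in Sox9cKO. It rose from few reads, with a log2 fold change of 1.76 (standard error 0.314; limma, adjusted p = 0.0321), and lost its call whichever of the 6 samples was left out (adjusted p at most 0.117). The next enzymes of tyrosine breakdown are Hpd, Hgd and Fah. Hpd had a log2 fold change of -0.12 with a confidence interval from -1.77 to 1.54, since its Sox9cKO samples ranged from 6.79 to 59.7. Hgd stayed between 7.92 and 16.8 in all samples (log2 fold change -0.15; limma, adjusted p = 0.887). Fah was read at 196 ± 39.3 in Control and at 193 ± 16.1 in Sox9cKO (SD, n = 3 each), and its confidence interval of -0.46 to 0.46 lies well below the log2 fold change of Tat.

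In the methionine cycle, Bhmt rose, and Mat1a and Gnmt were not called. Bhmt encodes the enzyme that makes methionine from homocysteine with betaine as donor. Bhmt was read at 34.5, 42.7 and 13.8 in Control and at 130, 167 and 162 in Sox9cKO, with no overlap. It rose 5.05-fold (log2 fold change 2.43, standard error 0.409; limma, adjusted p = 0.0268), and lost its call in 4 of 15 alternatives, without Control replicate 1 or without any one Sox9cKO replicate (adjusted p at most 0.0866). Its neighbour on chromosome 13 is the near copy Bhmt2, with which reads may be shared. Mat1a, which makes S-adenosylmethionine in the adult liver, went from 183 ± 41.8 to 275 ± 48.4 (SD, n = 3 each) without overlap, and its log2 fold change of 0.60 did not pass (limma, adjusted p = 0.233, and 0.0564 with the block). Gnmt, which uses up S-adenosylmethionine, stood at -0.22 on the log2 fold scale (limma, adjusted p = 0.799).

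None of the 4 tested genes of the urea cycle was called, with or without the block. Cps1 makes carbamoyl phosphate, the entry to the cycle, and was read at 52.6 ± 24.3 in Control and at 98.9 ± 64.6 in Sox9cKO (SD, n = 3 each). Sox9cKO replicate 1 alone, at 172, was above every Control sample by a wide margin (log2 fold change 0.81, limma, adjusted p = 0.482). Ass1 and Asl, which make and split argininosuccinate, had log2 fold changes of 0.37 and 0.22 (limma, adjusted p = 0.592 and 0.506). Asl was among the 3 enzymes with the highest mean, at 246, 202 and 206 in Control and at 257, 235 and 271 in Sox9cKO, with overlapping groups. Its confidence interval ran from -0.13 to 0.58, below the log2 fold change of every called member. Arg1, which releases urea, lay between 13.8 and 18.5 in Control and between 24.6 and 39.8 in Sox9cKO, and its log2 fold change of 0.92 did not pass (limma, adjusted p = 0.197). Otc had too few reads to be tested. The 5 genes together summed to between 23.4 and 26.0 RPM in Control and between 27.4 and 38.9 in Sox9cKO.

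The 3 genes of gluconeogenesis had positive log2 fold changes, and none was called without the block. Fbp1, fructose-bisphosphatase, was read at 26.9, 10.2 and 16.1 in Control and at 83.6, 39.7 and 40.8 in Sox9cKO. Its groups did not overlap (log2 fold change 1.58; limma, adjusted p = 0.127, and 0.0225 with the block). G6pc, the glucose-releasing phosphatase, lay between 39.2 and 66.4 in Control and between 69.0 and 173 in Sox9cKO (log2 fold change 1.02; limma, adjusted p = 0.232). Pck1, which makes phosphoenolpyruvate, had a log2 fold change of 0.35 with overlapping groups (limma, adjusted p = 0.640).

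Glul, glutamine synthetase, is made in the liver by the hepatocytes around the central vein. It was the most abundant enzyme of the set, at 3706, 3926 and 2956 in Control and at 3926, 3042 and 3122 in Sox9cKO. The groups overlapped fully, and the log2 fold change of -0.07 had a confidence interval from -0.44 to 0.30 (limma, adjusted p = 0.868). Gls2, liver glutaminase, lay between 10.4 and 24.1 in Control and between 25.5 and 28.3 in Sox9cKO (log2 fold change 0.84; limma, adjusted p = 0.315). Hal, which removes the amino group of histidine, stood at 0.096 on the log2 fold scale (limma, adjusted p = 0.937). The genes too low to be tested were Agxt, Otc and Sds, with means of 5.62, 6.40 and 7.45. Their values overlapped between the groups, and Otc had no read in Control replicate 3. Hgd, with a mean of 12.9, was the lowest gene that was tested. No tested member had a mean under 10 in either group.

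**Figure D3:**
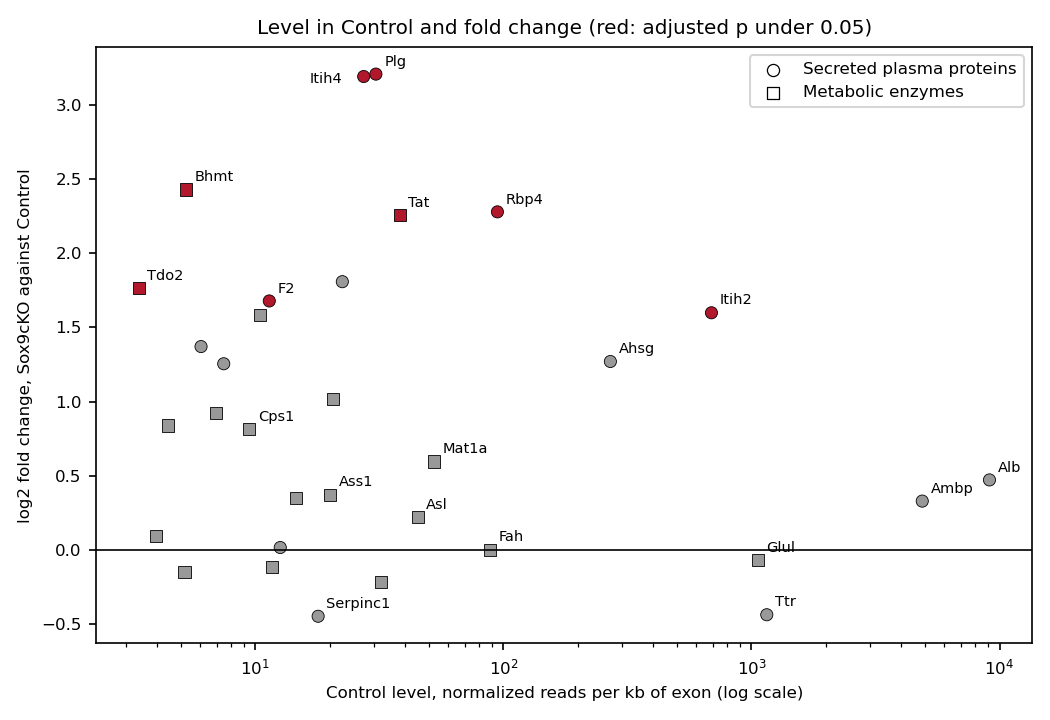
Control level in normalized reads per kilobase of exon (log axis) against the log2 fold change of Sox9cKO against Control for the 32 tested genes, circles for secreted proteins and squares for enzymes, red where the adjusted p is under 0.05. Alb, Ambp, Ttr and Glul, the 4 highest genes, have log2 fold changes between -0.44 and 0.47, and Plg and Itih4, at 30.6 and 27.3 reads per kilobase, stand at the top.

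Levels of different genes were compared per kilobase of exon. In Control the mean levels were 9111 for Alb, 4881 for Ambp, 1153 for Ttr and 1062 for Glul, and then 690 for Itih2, 270 for Ahsg and 94.6 for Rbp4. Plg and Itih4 were in the thirteenth and the fourteenth place, below Fah, Mat1a, Asl and Tat. In Sox9cKO, Plg stood at 278 and Itih4 at 265 normalized reads per kilobase, above each of those enzymes, and Tat at 182 was above Fah at 87.2 and Mat1a at 79.2. Neighbours in this order such as Ttr and Glul in Control, or Plg and Itih4 in Sox9cKO, did not differ beyond the spread of their samples.

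Reads of the members were also set against the Alb reads of the same library. For every 1000 Alb reads there were 5.28, 6.89 and 3.95 Plg reads in the Control samples and 31.9, 39.6 and 34.6 in the Sox9cKO samples. For Itih4 the values were 4.28, 5.82 and 4.38 against 42.8, 26.9 and 27.8, and for Itih2 103, 112 and 109 against 238, 268 and 205. For these genes the Sox9cKO ratios were above all Control ratios. The Ttr ratio went the other way, from 66.6, 64.6 and 59.9 to 49.4, 30.7 and 25.6. The ratio of Apoa1, a hepatocyte apolipoprotein that is no member, was 4.28, 6.35 and 5.17 in Control and 7.37, 4.95 and 3.01 in Sox9cKO, with overlap. Plg, Itih4, Itih2 and Ttr therefore did not keep a fixed ratio to Alb. Among the other members, the ratios of Ambp, Ahsg, Asl, Fah, Mat1a, Glul and others overlapped between the groups. Those of Rbp4, F2, Tat, Bhmt, Kng1, Itih1, G6pc, Tdo2 and Fbp1 were higher in every Sox9cKO sample than in any Control sample. Those of Serpinc1, Agxt and Sds were lower in every Sox9cKO sample, and Agxt and Sds had too few reads to be tested. The share of all genes whose ratio to Alb did not overlap was not computed.

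Summed over genes, the secreted proteins without Alb and Ambp gave 456, 332 and 299.6 RPM in Control and 998, 698 and 897 in Sox9cKO. The enzymes without Glul gave 85.2, 72.1 and 85.5 in Control and 137, 124 and 136 in Sox9cKO. Both sums were higher in every Sox9cKO sample, by 2.38-fold and 1.64-fold in the means. Most of this rise lay in few genes. The 8 called members together had means of 207 RPM in Control and 707 in Sox9cKO. The 4 inter-alpha-inhibitor heavy chains alone had means of 183 and 560. The ratio of the first sum to the second was 5.36, 4.61 and 3.50 in Control and 7.29, 5.65 and 6.57 in Sox9cKO, without overlap. Alb, Ambp and Glul were left out of these sums because they held most of the reads. This choice decides the separation. Over all 14 secreted proteins the sums were 2019 to 3093 RPM in Control and 2686 to 3935 in Sox9cKO (1.44-fold in the means), and over all 21 enzymes 301 to 361 and 337 to 403 (1.07-fold), with overlap in both. The ratio of secreted proteins to enzymes then also overlapped, at 8.65, 5.58 and 7.26 in Control and 9.75, 7.97 and 11.04 in Sox9cKO. With Alb and Glul left out and Ambp kept, it was 12.4, 10.2 and 9.43 in Control and 12.8, 9.59 and 10.6 in Sox9cKO.

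A list of 18 genes that define hepatocytes and are no members (Apoa1, Cyp2e1, Cyp3a11, Mup3, Ces1c and others) was read beside these results. Of its genes, 17 were in the table, none of them at 0 in all samples, and 15 were tested. The list summed to between 94.6 and 149 RPM in Control and between 209.9 and 369 in Sox9cKO. Ces1c, a secreted carboxylesterase, was the gene of the list that was called, at 345, 239 and 169 in Control and 2635, 1526 and 2299 in Sox9cKO (log2 fold change 3.12; limma, adjusted p = 0.00404). Without Ces1c the sums were 82.2 to 123 in Control and 103 to 190.3 in Sox9cKO, which overlap, and the median log2 fold change of the tested genes of the whole list was 0.33. The summed Kupffer cell and leukocyte markers also differed between the groups, with sums of 76.2 to 89.1 in Control and 106 to 124 in Sox9cKO. Of these 10 markers, 9 were in the table and none was called lower without the block among the 6 tested. Csf1r was called higher, and the other 5 tested markers had negative log2 fold changes, 1 of them called lower with the block, so that the median was -0.83 although the sum was higher. The part of other cell types in the members' changes was not tested.

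**Figure D4:**
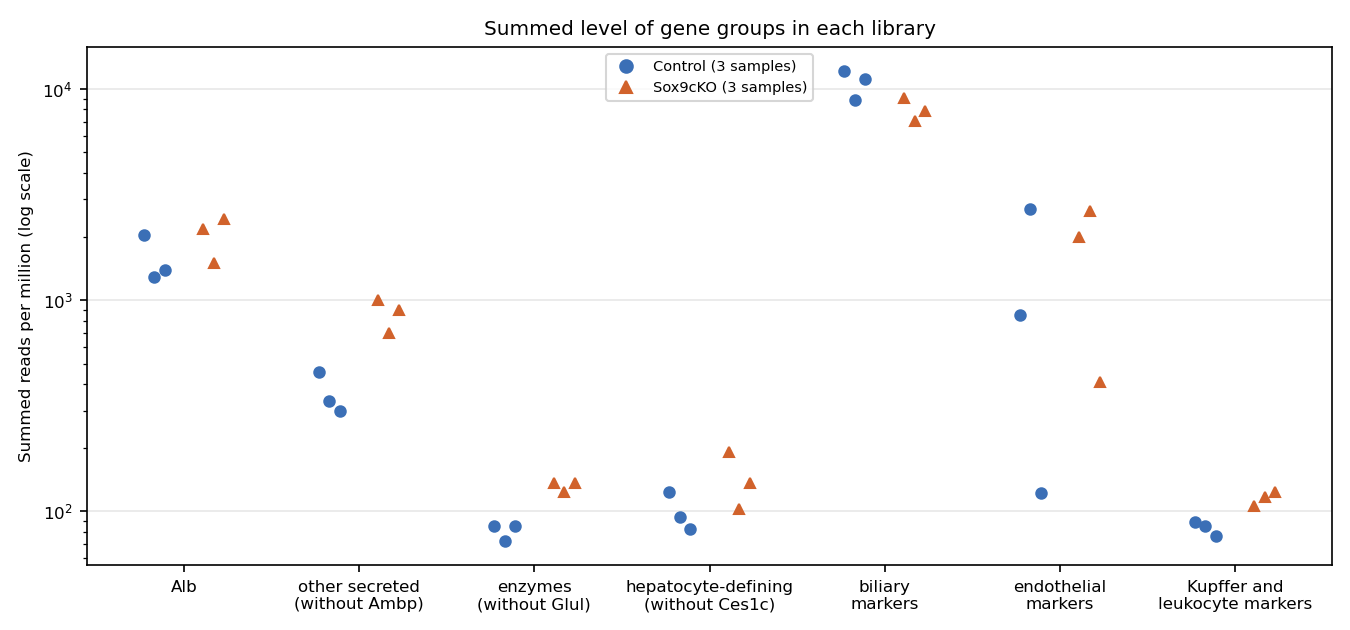
Summed RPM (log axis) of 7 gene groups, with 1 point per sample (circles Control, triangles Sox9cKO). The secreted proteins other than Alb and Ambp and the enzymes other than Glul are higher in all 3 Sox9cKO samples. Alb and the hepatocyte-defining genes without Ces1c overlap between the groups. The genes left out decide this difference. With Alb, Ambp and Glul kept, the sums of secreted proteins and of enzymes overlap, and with Ces1c kept the hepatocyte-defining sums do not.

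The same contrast was read in plasma proteins and enzymes outside the set. These lists use the same samples and were chosen with earlier results of these data known, so they are not independent of the set. Of all tested genes, 2.03% were called higher and 0.939% lower (5.06% and 2.99% with the block). Of 33 further plasma protein genes, 31 were in the table and 28 were tested. Of these, 11 were called higher and none lower (15 and 1 with the block), with a median log2 fold change of 1.39. Of 46 further enzymes of hepatocyte metabolism, 45 were in the table and 37 were tested. Of these, 2 were called higher and 1 lower (4 each with the block), with a median of 0.30. Serpina6, the corticosteroid-binding globulin, and Hpx, the heme carrier hemopexin, rose by 4.59 and 4.50 on the log2 scale (limma, adjusted p = 0.00445 and 0.00368). Gc, the vitamin D carrier, was read at 436, 299 and 151 in Control and at 4607, 6544 and 4748 in Sox9cKO, and F12, coagulation factor XII, went from 22.6 ± 9.54 to 419 ± 122 (SD, n = 3 each). Pzp, a broad protease inhibitor, went from 878 ± 142 to 8244 ± 1531. On the log2 fold scale Gc, F12 and Pzp rose by 4.27, 4.19 and 3.23 (limma, adjusted p = 0.00327, 0.00333 and 0.00114).

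Vtn, vitronectin, has the symbol closest to Vtnb and was read at 589, 714 and 303 in Control and at 11057, 8643 and 8595 in Sox9cKO. Its mean was 17.6-fold higher in Sox9cKO, a larger ratio than that of any member (log2 fold change 4.22; limma, adjusted p = 0.00173). Kng2, named after its values were seen, rose by 3.67 on the log2 scale (limma, adjusted p = 0.00745), more than its near copy Kng1. Among the further enzymes, Gldc of the glycine cleavage system rose by 3.85 and Dmgdh, which acts on dimethylglycine, the product of the Bhmt reaction, rose by 2.41 (limma, adjusted p = 0.00139 and 0.0256). Aass, the first enzyme of lysine breakdown, fell by 0.74 (limma, adjusted p = 0.0312), from 455 ± 27.8 to 273 ± 18.6. None of 17 tested hepatocyte transcription factors was called (2 higher and 1 lower with the block), with a median of 0.0081.

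**Figure D5:**
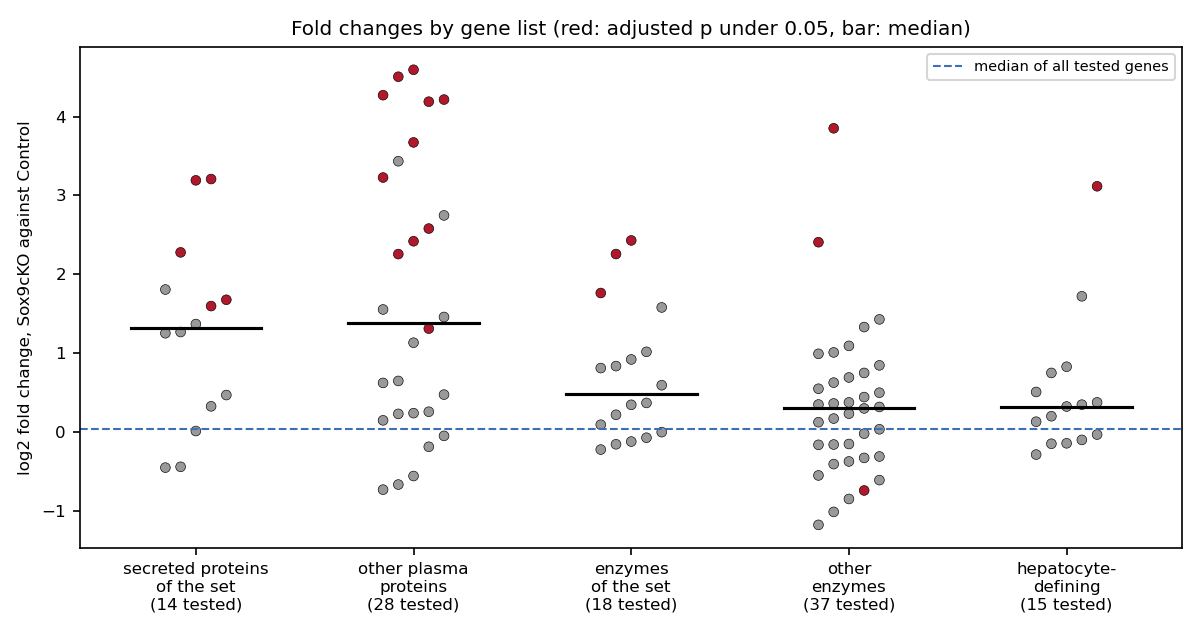
Log2 fold changes of Sox9cKO against Control for each tested gene in 5 lists (points, red where the adjusted p is under 0.05), with the median of each list (bar) and of all tested genes (dashed line, 0.036). The medians were 1.32 and 1.39 for the secreted proteins of the set and the other plasma proteins, and 0.48, 0.30 and 0.33 for the enzymes of the set, the other enzymes and the hepatocyte-defining genes.

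Of the 8 called genes, Plg, Itih4, Rbp4, F2, Itih2 and Tat were called in all 15 alternatives, including each fit that left out 1 sample. Their largest adjusted p over these was 0.0187, 0.0246, 0.0351, 0.0378, 0.0356 and 0.0431, in that order. edgeR and DESeq2 on the recovered reads called 8 and 12 members higher.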

How the data were processed

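The values deposited by the authors were a signal for each gene, read counts scaled by 1 size factor per sample, as the steps between values show; the submitters' processing notes name DESeq2 1.36.0 and build GRCm39, without their roles. The aligner, the counting program, its use of strand and of molecular identifiers are not given in the sources used here. Whole reads were recovered for 100% of the values (tolerance 0.001 reads), and libraries of one group differed by more than sampling noise. Values were transformed as log2(value + 1), so the fold changes of low genes are understated. limma 3.58.1 in R 4.3.3 tested the genes with a mean of at least 10 (intensity trend, two-sided, Benjamini-Hochberg over all tested genes, threshold 0.05). This called 510 genes. As an added alternative, edgeR 4.0.16 (quasi-likelihood) on the recovered reads called 491, and DESeq2 1.42.0 was run too. Same-numbered samples, numbered by the titles, had deviations correlated at 0.207, 0.472 and 0.542 for replicates 1 to 3, so the fit with the replicate block is given beside the other where it changes a call.

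The members and lists were chosen with earlier results of these data known. Sample values were given for members called with or without the block, for Alb and Glul, and for the 3 secreted proteins and 3 enzymes with the highest means; from the other plasma proteins and enzymes, at most 6 called genes by p-value and Vtn. Ttr, Serpinc1, Apoa1, Ces1c, Itih5, Kng2, Slc22a3 and Zbtb37 were named after their values were seen. Exon lengths came from GENCODE release 21 of the mouse (98.1% of rows matched), promoters from RefSeq on GRCm38.p6. The scripts were tested on simulated data. Further alternatives changed the pseudocount to 0.1 or 5, dropped the filter or raised it to 50, used TMM factors or quantile normalization, or left out each sample in turn.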

Additional observations from a re-analysis of the deposited data

How the results depend on the processing

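Over all tested genes, 510 were called. DESeq2 called 1214 and the fit with the replicate block 1381, and the fits that left out 1 sample called between 199 and 387. Of the secreted proteins 5 were called, and 8 with DESeq2 and with the replicate block. Of the enzymes 3 were called, and between 1 and 2 in the fits that left out 1 sample. The block changed the call of Ahsg, Kng1, Itih1 and Fbp1 and of no other member, and Itih1 was also called without Control replicate 1. No member was called lower in any of the 15 alternatives, and no called member changed direction. With a minimum mean of 50, Tdo2 was not tested. The median over all genes lay between -0.051 and 0.073 (log2) in the alternatives. With 3 samples a group, members with few reads had wide intervals, and a gene that was not called is not shown to be equal in the groups.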
